A study of Mus musculus with 4 samples.

Results

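The enzymes that make nucleotides, one-carbon units and polyamines were compared between N-myc high and N-myc low mouse marrow cells sorted as haematopoietic stem cells. The set was drawn up by gene name, with no measured value in the choice of members, though with earlier results of these data known. It lists 34 enzymes, of which 31 were measured among the 18193 genes with a probe set of their own. These are 10 enzymes of purine synthesis, 9 of pyrimidine synthesis and salvage, 5 that serve purine and pyrimidine nucleotides alike, 5 of folate one-carbon metabolism and 2 of polyamine synthesis. The brightest probe set that names a single gene stood for each enzyme. Impdh2 and Amd1 were not analysed here, and Sms was read only by probe sets that also name Sms-ps.

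N-myc high and N-myc low cells were separated by mCherry in stem cells (Lin-Sca+Kit+CD48-CD150+) from transgenic mice whose N-myc is fused to mCherry, so both fractions carry the fusion gene. Each fraction was profiled on 2 arrays, from samples labelled mouse 1 and mouse 2, and no array of a mouse without the fusion was used here. The cells were neither cultured nor treated, while the age, sex and strain of the mice and the promoter behind the fusion were not given in the sources used here. Cd48, the gene of the CD48 that the sort excludes, read 7.42 and 7.11 in N-myc high, against 9.89 and 9.07 in N-myc low (log2 difference -2.21, limma adjusted p = 0.744). At the level of RNA, the libraries labelled N-myc low thus go against the CD48- part of their label, and those labelled N-myc high less so. Every comparison here rests on them, and Cd48 was read by 1 probe set. The granulocyte gene S100a8 read 13.30 and 13.22 in N-myc high, against 13.38 and 13.42 in N-myc low. The mitosis gene Mki67 read 11.72 and 11.56 in N-myc high, against 11.78 and 11.52 in N-myc low. The median gene of an array read 6.19 to 6.26. Cd3e, Cd4, Cd8a and Itgam read below that, while Cd48 read above it in both fractions. Neither fraction was thus free of granulocyte or mitosis RNA. From each sample 5 ng of RNA was amplified before hybridisation. The values are log2 intensities after RMA, a procedure that normalises the arrays against each other, so a change shared by all genes is not visible in them. In such bulk samples, fewer cells that express a gene and less RNA per cell cannot be told apart.

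Dividing cells build purines on a ribose phosphate, by a chain of enzymes that ends in inosine monophosphate, and build the pyrimidine ring before joining it to ribose phosphate. Folate carries the one-carbon units that the purine ring and thymidylate need, and polyamines are small cations made from ornithine and S-adenosylmethionine. Odc1, Cad, Nme1 and several of the purine genes are textbook targets of MYC proteins, which bind the E-box motif CACGTG, while most long-term stem cells in adult marrow divide rarely. Mycn, the gene behind the sort, read 10.48 and 10.39 in N-myc high (mouse 1 and mouse 2), against 9.44 and 9.65 in N-myc low, a log2 difference of 0.89 (limma adjusted p = 0.762).

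The motif is shown first, since MYC proteins bind it. In the RefSeq windows from 250 bases before to 50 bases after each start site (GRCm38.p6, 300 bases each), CACGTG was present for 4 of the 28 measured members with a window, which is 14.3%, against 10.2% of all measured genes with one. CACGTG reads the same on both strands. The 4 members were Tyms, Atic, Paics and Nme1, and a 60-base stretch of each is printed 5′ to 3′ on the strand of its gene, with the motif in capitals.
Tyms (chr5:30073654-30073713, minus strand): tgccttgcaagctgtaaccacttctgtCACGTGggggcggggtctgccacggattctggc
Atic (chr1:71557122-71557181, plus strand): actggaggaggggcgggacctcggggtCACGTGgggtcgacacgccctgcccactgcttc
Paics (chr5:76951072-76951131, plus strand): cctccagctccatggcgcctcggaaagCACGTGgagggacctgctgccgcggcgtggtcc
Nme1 (chr11:93968022-93968081, minus strand): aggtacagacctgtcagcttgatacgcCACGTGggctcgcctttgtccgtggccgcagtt
The centre of the motif lay at -58 from the start site in Tyms, at -4 in Atic, at -200 in Paics and at -26 in Nme1. A second RefSeq start site of Nme1 had its own copy at -15. Of these 4 genes, Tyms had a log2 difference of 0.45 between N-myc high and N-myc low, and Atic, Paics and Nme1 had -0.29, -0.14 and -0.16. A match is a description of the letters in the window, not evidence of binding, and no binding was measured here. Bases outside the window were not searched, so members without a match, such as Odc1 and Cad, may hold the motif elsewhere.

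No enzyme differed between N-myc high and N-myc low cells past the threshold. The log2 differences of the members ran from -0.74 for Uck2 to 0.91 for Tk2. The threshold was a Benjamini-Hochberg adjusted p under 0.05 in limma over all genes. It was passed by 0 of 31 members (adjusted p = 0.762 to 1), with 0% of all genes called. At an unadjusted p under 0.05 there was 1 member on the higher side, Tk2, against 3.53% of all genes, and 1 on the lower side, Uck2, against 2.78%. Both counts are near the background for a set of 31. Under a replicate block for the mouse, Tk2 left that count, making it 0, and Uck2 stayed. The count on the higher side was 0 without N-myc high mouse 1 and 0 without either N-myc low array. The count on the lower side was 0 without any 1 array other than N-myc low mouse 2.

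By direction alone, 22 of the 31 members had a negative difference (71.0%), against 54.7% of all genes and 49.1% of the 9096 genes above the median level, where all members lie. With each array centred on the median of its 18193 genes, 27 members were negative and 4 positive, against 61.8% negative among all genes. Prps1, Pfas, Impdh1, Dut and Shmt2 then turned from above to below 0. Those medians were 6.26 and 6.24 in N-myc high, against 6.21 and 6.19 in N-myc low. Over all probe sets the medians were 5.26 and 5.28 in N-myc high, against 5.32 and 5.27 in N-myc low. Centring on the latter was not run. The median difference over the members was -0.08, against -0.03 over all genes. Both N-myc high arrays lay below both N-myc low arrays for 10 members, against 20.8% of all genes and 17.96% of the brighter ones. They lay above both for 3 members, Odc1, Tyms and Tk2, against 15.6% of all genes and 19.1% of the brighter ones. The 10 lower members were Gart, Paics, Atic, Umps, Uck2, Tk1, Nme2, Dck, Shmt1 and Mthfd1l.

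The number of members with a negative difference depended most on 1 array. It was 13 without N-myc high mouse 2, and 20 to 27 without any other 1 array. N-myc high mouse 2 held the lowest of the 4 values for 19 of the 31 members (61.3%), although it held the lowest for 22.8% of all genes and 26.99% of the brighter ones. The median deviation of the members from their own mean was 0.07 and -0.20 in N-myc high (mouse 1 and mouse 2), against 0.11 and 0.04 in N-myc low. Without N-myc high mouse 2, the median difference over the members was 0.016, with 13 lower and 18 higher, and the median over all genes was -0.05. Without N-myc high mouse 1 it was -0.23, with 27 lower and 4 higher, and the median over all genes was -0.01. Within mouse 1 the median difference was -0.06 and within mouse 2 it was -0.18, against -0.06 and -0.0035 over all genes. In both mice alike, 13 members were lower (41.9%, against 29.7% of all genes) and 4 higher (12.9%, against 23.2%).

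**Figure D1:**
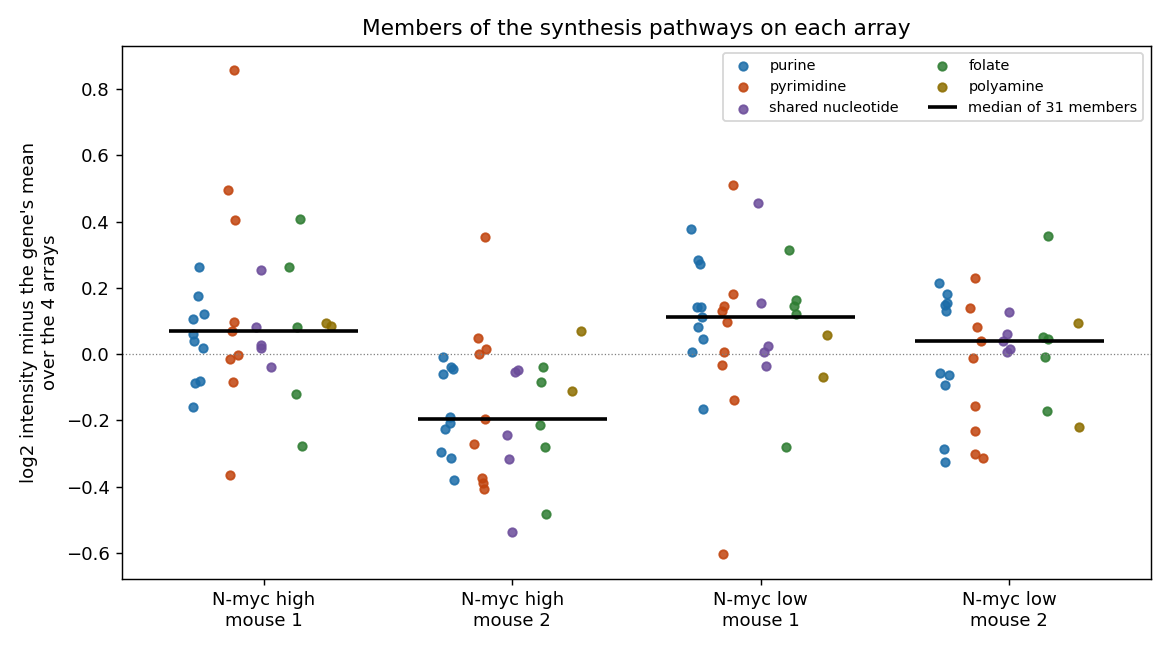
Each point is 1 of the 31 enzymes on 1 array (x axis), plotted as its log2 intensity minus its mean over the 4 arrays (y axis), with colours for the pathways and a bar at the median of the members. The bar lies at -0.20 for N-myc high mouse 2, and between 0.04 and 0.11 on the other arrays.

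Differences between the mice of a fraction were as large as those between fractions. The median size of the log2 difference between the 2 mice was 0.20 among N-myc high arrays, against 0.17 among N-myc low arrays, and between the means of the fractions it was 0.14. Over all genes these sizes were 0.24, 0.27 and 0.20, the same order as in the members, and a difference of single arrays varies more than one of means. Mouse 1 lay above mouse 2 for 25 members in N-myc high (80.6%, against 44.3% of all genes), and for 20 in N-myc low (64.5%, against 51.1% of all genes). For 26 of the 31 members the 95% interval of the difference lay within a 2-fold change in either direction, as it did for 63.3% of all genes. The exceptions were Uck2, Tk2, Dck, Dhodh and Mthfd2. A missed threshold therefore does not show equal levels, since the standard errors (SE) of the members ran between 0.17 and 0.40.

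**Figure D2:**
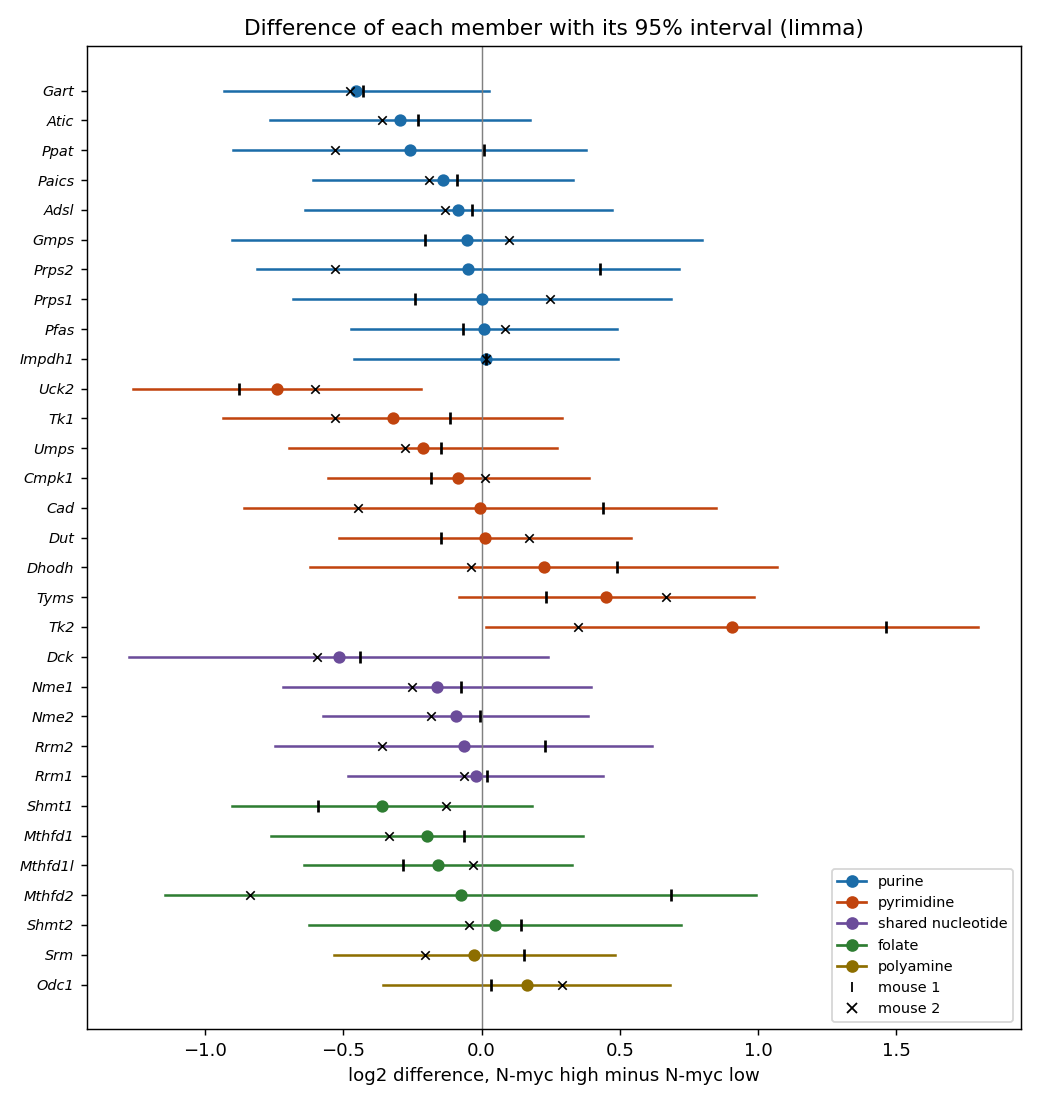
Log2 difference of each enzyme (x axis), N-myc high minus N-myc low, with the 95% interval of the limma fit as a line, the value within mouse 1 as a tick and within mouse 2 as a cross, and the enzymes in rows by pathway. The interval of Uck2 lies below 0 and that of Tk2 above it, while the other 29 cross 0.

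Purine synthesis had a median difference of -0.07 over its 10 measured enzymes, with 7 lower and 3 higher and 0 at an unadjusted p under 0.05. With N-myc high mouse 2 left out the median was 0.03, with N-myc high mouse 1 left out it was -0.24, and with N-myc low mouse 2 left out it was -0.21. Gart, which carries several early steps of the ring on 1 protein, read 9.05 and 8.92 in N-myc high (mouse 1 and mouse 2), against 9.48 and 9.39 in N-myc low. The groups did not overlap, the difference was alike in the mice at -0.43 and -0.48, and overall it was -0.45 (SE 0.180, limma adjusted p = 0.781). Its 3 dimmer probe sets gave -0.40, -0.11 and 0.31.

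Atic, which carries out the last steps to inosine monophosphate, read 9.44 and 9.32 in N-myc high, against 9.67 and 9.68 in N-myc low. Both N-myc high values lay below both N-myc low ones, with a difference of -0.29 (SE 0.176, limma adjusted p = 0.811), and the second probe set gave -0.28. Paics, which adds carbon dioxide and aspartate to the growing ring, read 10.97 and 10.99 in N-myc high, against 11.05 and 11.18 in N-myc low. Its difference of -0.14 did not exceed its SE (0.177), and its other probe sets gave -0.46 and -0.38, all on the lower side.

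Ppat, the enzyme of the committed first step, read 9.77 and 9.27 in N-myc high, against 9.76 and 9.80 in N-myc low. Only N-myc high mouse 2 stood apart there, so the difference of -0.26 (SE 0.240) was 0.0094 in mouse 1 and -0.53 in mouse 2. Prps2, which makes the activated ribose that Ppat uses, differed with opposite signs in the mice, by 0.43 in mouse 1 and -0.53 in mouse 2. Its paralog Prps1 had opposite signs too, with -0.24 and 0.25. A brighter probe set that names Prps1 and Prps1l3 together read 8.57 and 8.37 in N-myc high, against 8.99 and 8.95 in N-myc low, and gave -0.50.

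The remaining purine enzymes differed by less than 0.09 in size. Pfas, an amidotransferase in the middle of the chain, gave 0.0090, and Adsl, a lyase that acts at separate points of the pathway, gave -0.08. Impdh1, which turns inosine monophosphate towards guanine nucleotides, read 7.43 and 7.32 in N-myc high, against 7.41 and 7.30 in N-myc low, so the mice differed more than the fractions. Gmps, which completes guanosine monophosphate, gave -0.05, while its other probe sets gave 0.25 and 0.43.

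A wider list covers the other purine genes, of salvage, breakdown and interconversion. Of 19 measured, 9 were higher and 10 lower, with a median difference of -0.01, and 0 passed the adjusted threshold. At an unadjusted p under 0.05 there were 4 on the higher side, where 3.53% of all genes lie, and 0 on the lower side, where 2.78% lie. Gda, the guanine deaminase, read 8.97 and 8.24 in N-myc high, against 6.43 and 6.67 in N-myc low. The difference was 2.05 (SE 0.310, limma adjusted p = 0.744), and all 3 of its probe sets were on the higher side. Ampd3, an AMP deaminase, read 7.04 and 7.72 in N-myc high, against 5.67 and 6.27 in N-myc low, a difference of 1.41 (SE 0.346, limma adjusted p = 0.762). The other 2 genes of that count, named after their values were seen, were the purine nucleoside phosphorylase gene Pnp at 0.68 (SE 0.203) and the xanthine dehydrogenase gene Xdh at 1.09 (SE 0.369). Without overlap, 5 of the 19 lay higher and 0 lower, against 15.6% and 20.8% of all genes. These 4 are among the 5, which adds no support, since they were picked for a small p on the same arrays. Whether the breakdown genes differ from the synthesis genes was not tested.

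Pyrimidine enzymes had a median difference of -0.0046 over 9, with 5 lower and 4 higher, and the set held the extremes of the whole group on both sides. The median was -0.16 with N-myc high mouse 1 left out, and -0.14 with N-myc low mouse 2 left out. Uck2, a kinase that salvages uridine and cytidine, read 9.55 and 9.54 in N-myc high, against 10.42 and 10.14 in N-myc low. The N-myc high values were nearly equal and lay below both N-myc low ones, a 1.67-fold difference (log2 -0.74, SE 0.195, 95% interval -1.26 to -0.22, limma adjusted p = 0.762). The 5 other, dimmer probe sets of Uck2 ran from -0.22 to 0.46, with 4 on the higher side, and the mean over all its probe sets gave -0.05.

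Tk2, the mitochondrial thymidine kinase, read 7.80 and 6.99 in N-myc high, against 6.34 and 6.64 in N-myc low, from 1 probe set. The groups did not overlap, but N-myc high mouse 1 lay far above the others. The difference of 0.91 (SE 0.335, limma adjusted p = 0.779) was 1.46 in mouse 1 and 0.35 in mouse 2, and it was 0.50 without N-myc high mouse 1. Tk1, the cytosolic thymidine kinase of S phase, read 9.09 and 8.63 in N-myc high, against 9.20 and 9.16 in N-myc low. Its difference of -0.32 (SE 0.230) was -0.11 in mouse 1 and -0.53 in mouse 2. That Tk1 and Tk2 differ from each other in response was not tested.

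Tyms, which makes thymidylate from deoxyuridylate with a folate one-carbon unit, read 6.53 and 6.79 in N-myc high, against 6.30 and 6.12 in N-myc low. The groups did not overlap and the difference was 0.45 (SE 0.201, limma adjusted p = 0.793), but it comes from a dim probe set and the 3 others gave 0.03, -0.12 and -0.16. A far brighter probe set, which names Tyms together with Tyms-ps, read 9.84 and 9.90 in N-myc high, against 10.27 and 9.73 in N-myc low, so there the groups overlapped and the difference was -0.13. The direction of Tyms thus depended on the probe set.

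Umps, which makes uridine monophosphate, read 8.91 and 8.73 in N-myc high, against 9.06 and 9.01 in N-myc low. The groups stood apart with a difference of -0.21 (SE 0.183), and the 3 other probe sets gave -0.50, -0.55 and -0.11, all lower. Cad, whose single protein holds the opening steps of pyrimidine synthesis and which is a classical MYC target, read 10.36 and 9.55 in N-myc high, against 9.92 and 9.99 in N-myc low. The N-myc high mice lay on either side of N-myc low, so the difference was 0.44 in mouse 1 and -0.45 in mouse 2 and cancelled to -0.0046 (SE 0.321).

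Dhodh, the mitochondrial dehydrogenase of the pathway, gave 0.22 (SE 0.318), carried by 8.26 in N-myc high mouse 1 against 7.49 to 7.77 on the other arrays. Cmpk1, the UMP and CMP kinase, gave -0.08. Dut, which clears dUTP, read 11.52 and 11.54 in N-myc high, against 11.67 and 11.37 in N-myc low, and its 0.012 was far smaller than the gap between the N-myc low mice. A second, much dimmer probe set of Dut gave -0.83, so the mean of its probe sets was -0.41 and the direction of Dut depended on the probe set. Among 12 other pyrimidine genes measured, 0 reached an unadjusted p under 0.05. The smallest p among them belonged to Dctpp1, which degrades dCTP, at -0.33 (SE 0.178), and Ctps2, a CTP synthetase, at -0.32 (SE 0.212), with 1 of its 3 probe sets on the higher side at 0.57.

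All 5 enzymes shared by purine and pyrimidine nucleotides had a negative difference, with a median of -0.09 and 0 at an unadjusted p under 0.05. The median was 0.0019 when N-myc high mouse 2 was left out, but -0.33 when N-myc high mouse 1 was left out. Dck, the deoxycytidine kinase of salvage, read 7.75 and 7.19 in N-myc high, against 8.19 and 7.79 in N-myc low. Its difference of -0.52 (SE 0.285, limma adjusted p = 0.806) was alike in the mice at -0.44 and -0.60, and the 2 other probe sets gave -0.15 and -0.42. The lower N-myc low value lay only 0.04 above the higher N-myc high one, so the groups came close to overlapping.

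Ribonucleotide reductase, which makes deoxyribonucleotides, differed little with the probe sets used. Its large subunit gene Rrm1 read 10.42 and 10.35 in N-myc high, against 10.40 and 10.41 in N-myc low, a difference of -0.02, while a second probe set gave -0.39. The small subunit gene Rrm2, an S phase gene, read 9.96 and 9.38 in N-myc high, against 9.73 and 9.74 in N-myc low. Its difference of -0.06 combined 0.23 in mouse 1 with -0.36 in mouse 2, and its dimmest probe set gave -0.60.

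The nucleoside diphosphate kinase genes Nme1 and Nme2, close paralogs that lie beside each other in the genome, gave -0.16 (SE 0.209) and -0.09 (SE 0.180). Nme1 read 10.35 and 10.02 in N-myc high, against 10.42 and 10.27 in N-myc low, and Nme2 read 12.24 and 12.22 in N-myc high, against 12.24 and 12.41 in N-myc low. The Nme2 groups stood apart by less than 0.01, and since the genes are alike in sequence, a probe set of one may also read the other. Among 9 other genes of the shared steps, 0 reached an unadjusted p under 0.05. Those of smallest p were Nt5c, a deoxyribonucleotidase, at -0.43 (SE 0.200) and Rrm2b, the p53-induced small subunit of the reductase, at 0.20 (SE 0.201).

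The folate enzymes had a median difference of -0.16 over 5 genes, with 4 lower and 1 higher. It was -0.02 with N-myc high mouse 2 left out, but -0.26 with N-myc high mouse 1 left out, and 0 of the 5 reached an unadjusted p under 0.05. Shmt1, the cytosolic enzyme that takes a one-carbon unit from serine, read 8.61 and 8.81 in N-myc high, against 9.20 and 8.93 in N-myc low. The groups did not overlap, with a difference of -0.36 (SE 0.204, limma adjusted p = 0.811), and all 4 of its probe sets were lower, from -0.59 to -0.17.

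Shmt2, the mitochondrial counterpart and a known MYC target, read 9.33 and 8.86 in N-myc high, against 9.19 and 8.90 in N-myc low. Its difference of 0.05 (SE 0.254) lay within the gap between the mice, though all 4 of its probe sets were on the higher side, from 0.05 to 0.25. With each array centred on the median of its genes, the difference of Shmt2 was -0.0021. The difference between the Shmt genes in response was not tested.

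Mthfd1, the cytosolic enzyme that interconverts folate one-carbon units, gave -0.20 (SE 0.213), with -0.06 in mouse 1 and -0.33 in mouse 2. Mthfd1l, which releases formate from mitochondria, read 9.40 and 9.48 in N-myc high, against 9.68 and 9.51 in N-myc low, a difference of -0.16 (SE 0.183). Mthfd2, a mitochondrial folate enzyme of proliferating cells, read 7.997 and 7.107 in N-myc high, against 7.31 and 7.95 in N-myc low. It differed by 0.69 in mouse 1 and by -0.84 in mouse 2, and its overall -0.08 had the largest SE of the members, 0.403.

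Of 20 other folate and methionine cycle genes, 1 reached an unadjusted p under 0.05 on the higher side, which is near the 3.53% of all genes, and 0 on the lower side. The median difference was -0.03. The 1 gene was Mtrr, which reactivates methionine synthase, at 5.39 and 5.47 in N-myc high, against 4.52 and 4.67 in N-myc low, a difference of 0.84 (SE 0.181, limma adjusted p = 0.762). Mtfmt, which formylates the mitochondrial initiator tRNA, had the next smallest p, with -0.66 (SE 0.285), but its second probe set gave 0.42.

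Polyamine synthesis was read by Odc1 and Srm alone. Odc1, the rate-limiting decarboxylase of ornithine and a classical MYC target, read 10.97 and 10.95 in N-myc high, against 10.94 and 10.66 in N-myc low. Both N-myc high values lay above both N-myc low ones, but the gap to N-myc low mouse 1 was small, with a difference of 0.04 in mouse 1 and 0.29 in mouse 2. Overall it was 0.16 (SE 0.195, limma adjusted p = 0.903), but 0.02 if N-myc low mouse 2 was left out. Its dimmer probe sets gave -0.07 and 0.24.

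Srm, the spermidine synthase, read 9.74 and 9.55 in N-myc high, against 9.59 and 9.75 in N-myc low, and gave -0.03. The spermine synthase gene Sms was read by 3 probe sets that also name Sms-ps, and these gave 0.19, 0.74 and -0.41, so no direction can be given for it. Of 14 other polyamine genes, 0 reached an unadjusted p under 0.05, and the median difference was 0.03. Those of smallest p were Sat1, the acetyltransferase that starts polyamine breakdown, at 0.47 (SE 0.193), and Mtap, which recycles the by-product of spermidine and spermine synthesis, at 0.46 (SE 0.272), although 3 of the 4 probe sets of Mtap were lower.

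Over every probe set that names a member alone, 51 of 77 were lower (66.2%), against 54.9% of the 34945 probe sets of all genes. Of the 22 members with more than 1 probe set, all probe sets had 1 sign for 12, which is 54.5% against 41.4% of such genes on the array. These were 10 members on the lower side, Atic, Ppat, Paics, Prps2, Umps, Cad, Dck, Rrm1, Rrm2 and Shmt1, and 2 on the higher side, Dhodh and Shmt2. Probe sets of a gene share the same 4 RNA samples and do not replicate the comparison.

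**Figure D3:**
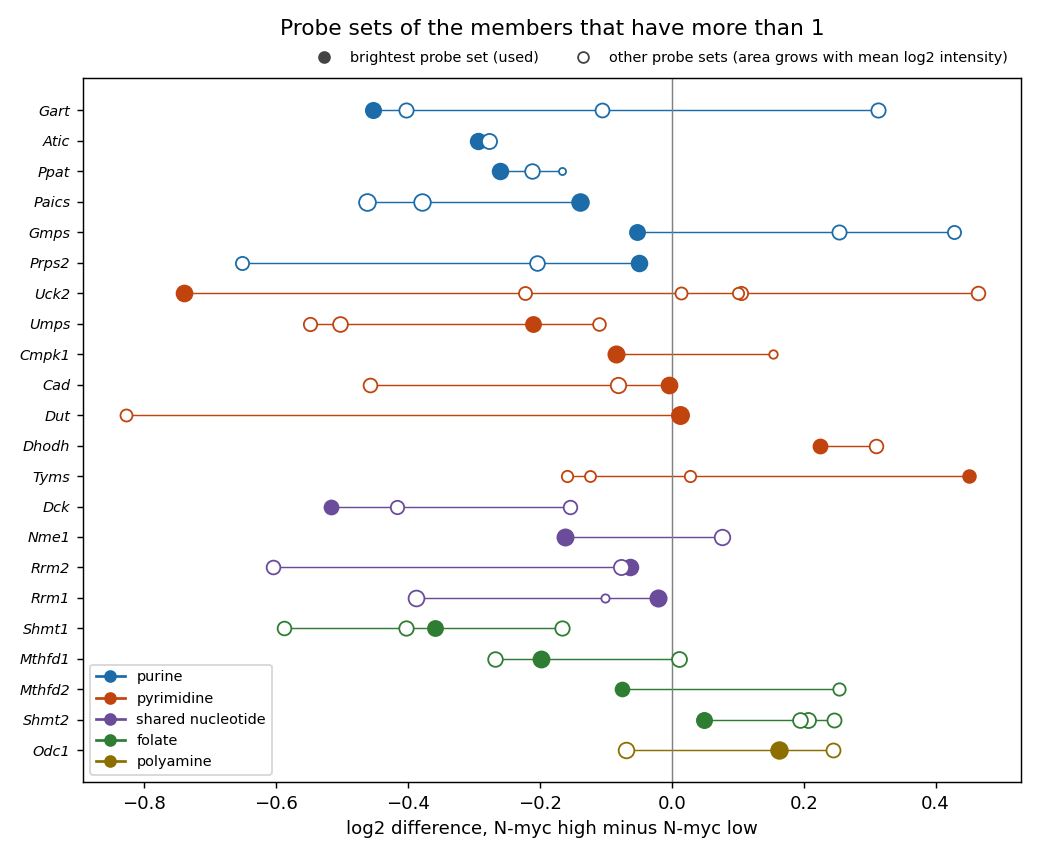
Log2 difference of every probe set (x axis), N-myc high minus N-myc low, for the 22 enzymes in rows that have more than 1, with the brightest probe set filled, the others open, point area growing with intensity and colours for the pathways. Uck2 spans from -0.74 to 0.46 and Tyms from -0.16 to 0.45, while all 4 probe sets of Umps and of Shmt1 lie below 0.

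Cell division genes and markers of other cells were set beside these values. For comparison, 54.7% of all genes were lower and 45.3% higher, with a median difference of -0.03. Of 13 mitosis genes, 12 were lower in N-myc high, with a median difference of -0.18 and median deviations of 0.01 and -0.23 in N-myc high (mouse 1 and mouse 2), against 0.13 and 0.05 in N-myc low. Of 17 S phase genes, 9 were lower and 8 higher, with a median of -0.02. Granulocyte markers were lower for 8 of 8, with mean log2 intensities of 11.15 and 10.86 in N-myc high, against 11.36 and 11.41 in N-myc low. Erythroid markers were lower for 5 of 5, with means of 6.50 and 6.23 in N-myc high, against 7.09 and 6.88 in N-myc low. Macrophage markers were higher for 6 of 8, with means of 6.06 and 5.87 in N-myc high, against 5.51 and 5.00 in N-myc low. That gap came mostly through C1qb at 2.66 and Mrc1 at 2.26, while the rest lay between -0.14 and 0.32. Stem cell markers were higher for 8 of 10, with means of 9.17 and 9.42 in N-myc high, against 8.91 and 8.85 in N-myc low. Fgd5 at 1.58, Procr at 1.19, Mecom at 1.05 and Hlf at 0.79 carried that gap. The rest lay between -0.55 for Cd34 and 0.17 for Slamf1, with Tek, Hoxa9 and Meis1 at 0.04 or less. B cell markers were lower for 4 of 6, with a median difference of -0.18. Their means, 5.24 and 5.25 in N-myc high, against 4.67 and 5.07 in N-myc low, ran the other way through Vpreb1, a gene of B cell precursors, at 8.29 and 6.51 in N-myc high, against 4.14 and 5.77 in N-myc low, and through Cd79a, at 0.65. The T and NK cell markers were lower for 4 of 6, with 4.14 and 4.26 in N-myc high, against 4.50 and 4.40 in N-myc low. Gzmb at -0.87 and Nkg7 at -0.77 carried that gap, while the rest lay between -0.05 and 0.20. The part of these lists in the values of the enzymes was not tested.

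Among genes that define the labelled cells, Kit read between 10.17 and 10.53 on the 4 arrays, and Slamf1, the gene of CD150, between 8.01 and 8.99. Of the genes sorted against, Cd3e read between 3.20 and 3.29, Cd4 between 5.35 and 5.73 and Cd8a between 5.31 and 5.86. Itgam read 3.92 and 3.11 in N-myc high, against 4.11 and 4.17 in N-myc low. The bioB and bioC hybridisation controls stood at 10.67 and 10.62 in N-myc high, against 10.84 and 11.51 in N-myc low, so N-myc low mouse 2 was set apart by them, and without that array the median over the members was -0.14.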

How the data were processed

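The authors deposited log2 intensities per probe set of an Affymetrix mouse array, made with RMA, and affy and limma are also named, without versions, per the submitters' processing notes. The chip definition, build and filters were not given in the sources used here. Of 45101 probe sets, 34945 name 1 gene in the platform annotation, and 932 that name several and 9160 unnamed here entered no gene test. The brightest probe set by mean over the 4 arrays stood for each of 18193 genes, with no filter on dim genes. Groups were compared with limma 3.58.1 (lmFit, eBayes) in R 4.3.3, with Benjamini-Hochberg adjustment over all genes, and the code was tested on simulated data. The 2 arrays per group limit the precision, and an exact permutation test of 2 against 2 reaches at best p = 0.333 (two-sided). Each p-value tests the difference between the fractions against the spread between the 2 samples of each fraction. In eBayes that spread is moved towards a value estimated from all genes.

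Same-numbered arrays were read as 1 animal per the labels, and their deviations from group means correlated at r = 0.049 across genes. The main fit had no block. Members, lists, tests and named genes (every member, and the 2 other enzymes of smallest p in each pathway) were chosen with earlier results of these data known. Alternatives were the mouse as a block, the mean of probe sets, brighter genes only, and arrays centred on the medians of their genes. The others were eBayes with trend and robust, and each array left out. Promoter windows and gene names came from RefSeq (GRCm38.p6).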

Additional observations from a re-analysis of the deposited data

How the results depend on the processing

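No member passed the adjusted threshold under any of the 9 alternatives, where the smallest adjusted p of a member was 0.609 in limma. With the mouse as a replicate block, with arrays centred on their gene medians, and with trend and robust, 0 members were higher at an unadjusted p under 0.05. Lower members at that p were 2 with centring and 0 with the mean of probe sets. Leaving out 1 array gave 0 to 1 on either side. Without overlap it gave 3 to 11 members higher, where all genes had 28.1% to 32.7%, and 11 to 22 lower, where all genes had 34.3% to 38.8%, since fewer arrays must be apart. There the lone array of a fraction is assumed to vary like those of the other. The medians ran from -0.23 to 0.016 over all members, from -0.24 to 0.032 for purine, from -0.16 to 0.0037 for pyrimidine and from -0.33 to 0.0019 for shared enzymes, and those of folate and polyamine kept their sign. Of 31 members, 15 kept their sign under all alternatives and 16 did not. Centring gave -0.049 for Prps1, -0.042 for Pfas, -0.035 for Impdh1, -0.039 for Dut and -0.0021 for Shmt2. The mean of probe sets gave 0.21 for Gmps, 0.035 for Cmpk1, -0.41 for Dut and 0.089 for Mthfd2. With 1 array left out, the range was -0.28 to 0.29 for Prps1, -0.34 to 0.24 for Prps2, -0.079 to 0.097 for Pfas, -0.23 to 0.065 for Adsl, -0.039 to 0.071 for Impdh1, -0.40 to 0.30 for Gmps, -0.41 to 0.40 for Cad, -0.16 to 0.61 for Dhodh, -0.14 to 0.16 for Dut, -0.0585 to 0.016 for Rrm1, -0.35 to 0.22 for Rrm2, -0.33 to 0.0019 for Nme1, -0.19 to 0.29 for Shmt2, -0.52 to 0.37 for Mthfd2 and -0.12 to 0.0725 for Srm. Signs that turned belong to differences of at most 0.22 in size, and the cause was not tested. All other pairs of a member and an alternative kept their sign. Dim probe sets have no measured background here. Tyms and Tk2, the dimmest members at means of 6.44 and 6.95, lay above the median level of all genes. Among the other enzymes named, Mtrr at 4.52 to 5.47 and Xdh at 4.08 to 5.69 lay below the median gene of every array.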
